A study of Mus musculus with 6 samples.

Results

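Day 3 of an endoderm differentiation course was set against both ends of the course, to describe the genes whose level at the middle stage departed from the line drawn between the start and the end. The comparison used 2 d3F samples of 6 samples in all, and each end stage, d0 and d5FS, also had 2 samples. For every gene the log2 level of d3F was compared with the mean of the log2 levels of d0 and d5FS, each stage weighted 0.5, and this difference is called the contrast. A positive contrast means that d3F lay above the midpoint of the end stages and a negative contrast that it lay below. It was tested for 14539 genes with enough counts out of 24054 genes in the files.

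All samples came from 1 mouse embryonic stem cell (ESC) line, the double knock-in (DKI) line, in which Foxa2 is fused to the fluorescent protein Venus on 1 allele (heterozygous) and Sox17 is fused to Cherry on both alleles (homozygous). The d0 cells were undifferentiated and were sorted at day 0 as Foxa2-Venus-neg/Sox17-Cherry-neg. The d3F cells were sorted at day 3 as Foxa2-Venus-pos/Sox17-Cherry-neg and the d5FS cells at day 5 as positive for both reporters, after daily treatment with Wnt3a and Activin A. Per the labels, RNA was sequenced after removal of ribosomal RNA. The study's library list, however, names mRNA for 1 library of each stage and total RNA for the other, without saying which replicate. The sorts were made on the products of Foxa2 and Sox17, so the levels of these genes were partly set by the gates. Each stage was sampled in 1 line only, and d0 differs from d3F in time, treatment and gate together and d5FS in time and gate, which cannot be told apart.

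During gastrulation, epiblast cells that receive Nodal, Wnt and FGF signals pass through the primitive streak and take up mesodermal or endodermal fate. Cells at the anterior end of the streak form the node, which gives rise to the notochord and secretes antagonists of BMP signalling, and neighbouring cells become definitive endoderm. In ESC cultures, Activin A acts through the Nodal receptors, and a Foxa2-positive cell without Sox17 is usually called mesendoderm, the term the labels give to d3F.

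Expected counts summed to between 16457728.93 and 22768686.01 per sample, and 16770 to 19846 genes had at least 1 count. The 10 most abundant genes held 13.9 to 18.7% of the counts of a sample. TPM (a level divided by gene length and scaled to the same total in each sample) was shifted between replicates: over all genes tested, the median ratio of replicate 1 to replicate 2 was 2.12 in d0, 1.67 in d3F and 1.52 in d5FS. On CPM (counts scaled to library size with TMM factors), the scale of the tests, the median log2 difference between replicates was 0.0 in d0, 0.01 in d3F and -0.02 in d5FS. Most genes therefore had a lower TPM in replicate 2 than in replicate 1 of the same stage, and replicates are compared below in CPM. Levels are given as TPM in the order replicate 1, replicate 2, and log2 differences come from the counts.

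The contrast was higher in d3F for 48 genes and lower for 12 genes (edgeR quasi-likelihood test, Benjamini-Hochberg adjusted p under 0.05 over all genes tested and an absolute log2 value above 1). These were 0.33% and 0.0825% of the genes tested, and the median contrast over all genes was 0.02. Contrasts of the higher genes ran from 1.61 to 5.76 with a median of 3.18, and those of the lower genes from -1.91 to -4.73 with a median of -2.76. In 33 of the 48 higher genes both d3F samples were above all 4 end-stage samples in CPM, a pattern that 5.85% of all genes tested had. In 10 of the 12 lower genes both were below all 4, against 5.26% of all genes. The genes were called on these same samples, so larger shares among them follow largely from the selection and are no separate support. Adjusted p-values of the called genes lay between 0.0071 and 0.0472, so most of them were close to the threshold. Smoc2 and Samd5 (both 0.0472) were the last genes inside it, and Foxj1 (0.0508), Fads2 (0.0514) and AU015836 (0.056) were the first outside.

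The counts of called genes rested on few libraries. With the replicate number as a block in the same edgeR test, 129 genes (0.887%) were higher and 43 (0.296%) lower, among them 46 of the 48 and all 12 of the 12. Without d0 replicate 1 the counts were 132 higher and 97 lower, without d0 replicate 2 they were 26 and 9, without d3F replicate 1 58 and 1, and without d3F replicate 2 12 and 0. Without d5FS replicate 1 edgeR called 0 higher and 0 lower, with 1378 genes at an unadjusted p under 0.05, and without d5FS replicate 2 it called 3 and 1. No gene was called in all 6 of these fits. The sign of the contrast was kept in all of them for all 48 higher and all 12 lower genes. These genes were chosen by large contrasts in samples that each fit mostly shares. A reversal was therefore unlikely, and the kept sign is no separate support.

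**Figure D1:**
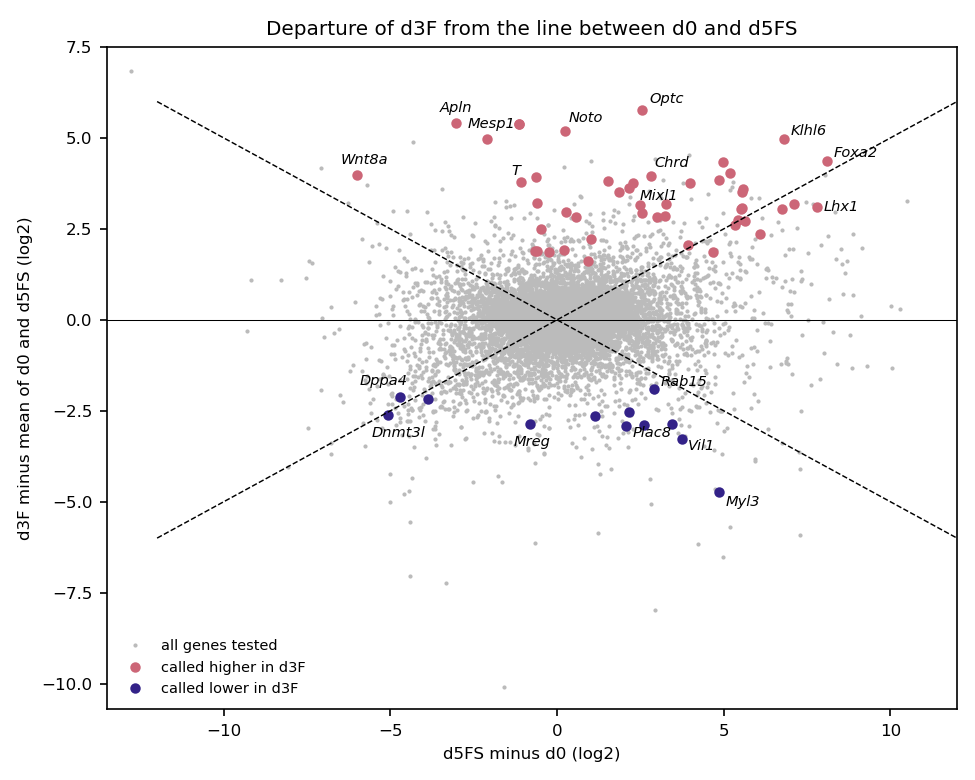
Each point is a gene, with the log2 difference of d5FS from d0 on the x axis and the log2 contrast of d3F with the mean of both on the y axis. Points between the dashed lines on the left or right have a d3F level between the end stages, points above both lines are peaks and points below both are dips. The 48 higher genes (red) lie mostly above both lines, and Lhx1 and Foxa2 lie close to the right-hand line, where d3F equals d5FS.

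The 5 marker genes given with this stage, T, Mixl1, Noto, Mesp1 and Chrd, were all among the 48, but they had been picked with earlier results of these data known. T (Brachyury, chr17:8434423-8442496 in GRCm38) is the T-box factor of the primitive streak and notochord. It was at 7.03 and 0.85 TPM in d0, then at 61.7 and 15.1 in d3F and at 2.12 and 0.52 in d5FS. Both d3F samples were above the 4 others, but the d3F replicates were 2.45-fold apart in CPM, and the d0 replicates also differed. Its contrast was 3.79 ± 0.59 (SE; edgeR adjusted p = 0.0468), and with the replicate block it was 3.88 (edgeR adjusted p = 0.00242). T kept its call when d0 replicate 1 was left out and lost it when any other sample was.

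Mixl1 (chr1:180693043-180697034), a homeobox factor of the streak and a target of Nodal signalling, was at 0.33 and 0.09 TPM in d0, 10.4 and 3.42 in d3F, then 0.85 and 0.61 in d5FS. Its lowest d3F value was above its highest end-stage value, with a contrast of 3.75 ± 0.37 (SE; edgeR adjusted p = 0.0107). Noto (chr6:85423886-85428877), the homeobox factor of the node and notochord, was at 0.04 and 0.03 TPM in d0, 3.01 and 1.04 in d3F, then 0.02 and 0.05 in d5FS. It was therefore close to 0 at both ends, and the differences from the 2 ends were nearly equal, 5.31 from d0 and 5.06 from d5FS (log2). Its contrast was 5.18 ± 0.59 (SE; edgeR adjusted p = 0.0205).

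Mesp1 (chr7:79792241-79793788), a basic helix-loop-helix factor of nascent mesoderm, was at 0.10 and 0.05 TPM in d0, 0.94 and 1.5 in d3F, then 0.03 and 0.00 in d5FS. Its counts were low: d3F held 95 counts over both samples and d5FS held 1, a ratio of 75.0 after scaling to library size (95% interval 13.1 to 2990, counting error only). Mesp1 was 2.7-fold higher in replicate 2 than in replicate 1 of d3F in CPM, the opposite of T, and its contrast was 4.97 ± 0.75 (SE; edgeR adjusted p = 0.0446). Chrd (chr16:20733127-20742384), which encodes the BMP antagonist chordin made by the node, was at 0.20 and 0.08 TPM in d0, 10.8 and 2.92 in d3F, then 1.06 and 0.50 in d5FS. Its level in d5FS, although low, was above that in d0 in both replicates. The contrast of Chrd was 3.94 ± 0.38 (SE; edgeR adjusted p = 0.0105).

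The 250 bases before the start sites of these markers are shown because Wnt3a was in the medium and T is known as a direct target of Wnt signalling. The motifs were chosen after the expression values were seen: CTTTGAA and CTTTGAT for TCF/LEF factors, TGTTTAC and TGTTTGC for forkhead factors, and AGGTGTG for T-box factors, each searched on both strands. The 2 TCF/LEF words exclude each other at any base, and so do the 2 forkhead words. The sequences are from RefSeq (GRCm38.p6), 5′ to 3′ on the strand of the gene, at chr17:8434173-8434422 (plus) for T, chr6:85423636-85423885 (plus) for Noto, chr7:79793591-79793840 (minus) for Mesp1 and chr16:20732877-20733126 (plus) for Chrd. Capitals mark TCF/LEF words, with TTCAAAG being CTTTGAA read on the other strand. Of the 5 markers, T, Noto, Mesp1 and Chrd matched an entry of the promoter table, and Mixl1 did not.
T: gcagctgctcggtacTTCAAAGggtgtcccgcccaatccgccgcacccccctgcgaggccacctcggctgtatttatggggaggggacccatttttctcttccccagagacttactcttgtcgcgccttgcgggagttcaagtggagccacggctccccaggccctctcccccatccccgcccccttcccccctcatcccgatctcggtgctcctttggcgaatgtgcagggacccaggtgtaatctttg
Noto: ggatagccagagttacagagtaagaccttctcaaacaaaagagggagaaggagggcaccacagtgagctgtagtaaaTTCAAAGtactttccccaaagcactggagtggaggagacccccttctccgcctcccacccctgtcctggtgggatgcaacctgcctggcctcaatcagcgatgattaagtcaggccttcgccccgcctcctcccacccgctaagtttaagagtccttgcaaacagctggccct
Mesp1: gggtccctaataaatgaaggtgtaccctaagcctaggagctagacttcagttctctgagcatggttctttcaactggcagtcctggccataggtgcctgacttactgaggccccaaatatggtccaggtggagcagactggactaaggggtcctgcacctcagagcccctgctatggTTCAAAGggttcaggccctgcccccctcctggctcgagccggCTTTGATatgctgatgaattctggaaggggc
Chrd: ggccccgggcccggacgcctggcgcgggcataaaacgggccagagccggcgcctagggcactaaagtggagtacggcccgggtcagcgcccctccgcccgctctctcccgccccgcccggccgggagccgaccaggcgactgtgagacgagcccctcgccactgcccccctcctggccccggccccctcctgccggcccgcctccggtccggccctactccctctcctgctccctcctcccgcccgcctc
T had 1 such word at 235 to 229 bases before the start and Noto had 1 at 173 to 167. Mesp1 had 2, at 73 to 67 and at 31 to 25 bases, and the window of Chrd held none. These distances are from the RefSeq start. For Mesp1 that start lies inside the gene coordinates given above, which are from GENCODE. Most of the Mesp1 window and both of its words therefore fall within those gene coordinates, not before them. Over all 32851 promoters in the table, 7.48% held a TCF/LEF word, 7.29% a forkhead word and 5.1% the T-box word. The 31 higher genes with an entry had 35 promoters, of which 14.3% (those of Mesp1, Noto, Pcdh7, Pde4d and T) held a TCF/LEF word. A forkhead word was held by 11.4% (those of Fgf10, Noto, Sprr2a1 and Sprr2a2) and the T-box word by 0.0%. Sprr2a1 and Sprr2a2 were listed with identical expression values and are 1 uncertain observation, so that share counts it more than once. The forkhead word of Noto is not marked in the sequence above. A match is only a match of letters, and no binding was measured in these samples.

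**Figure D2:**
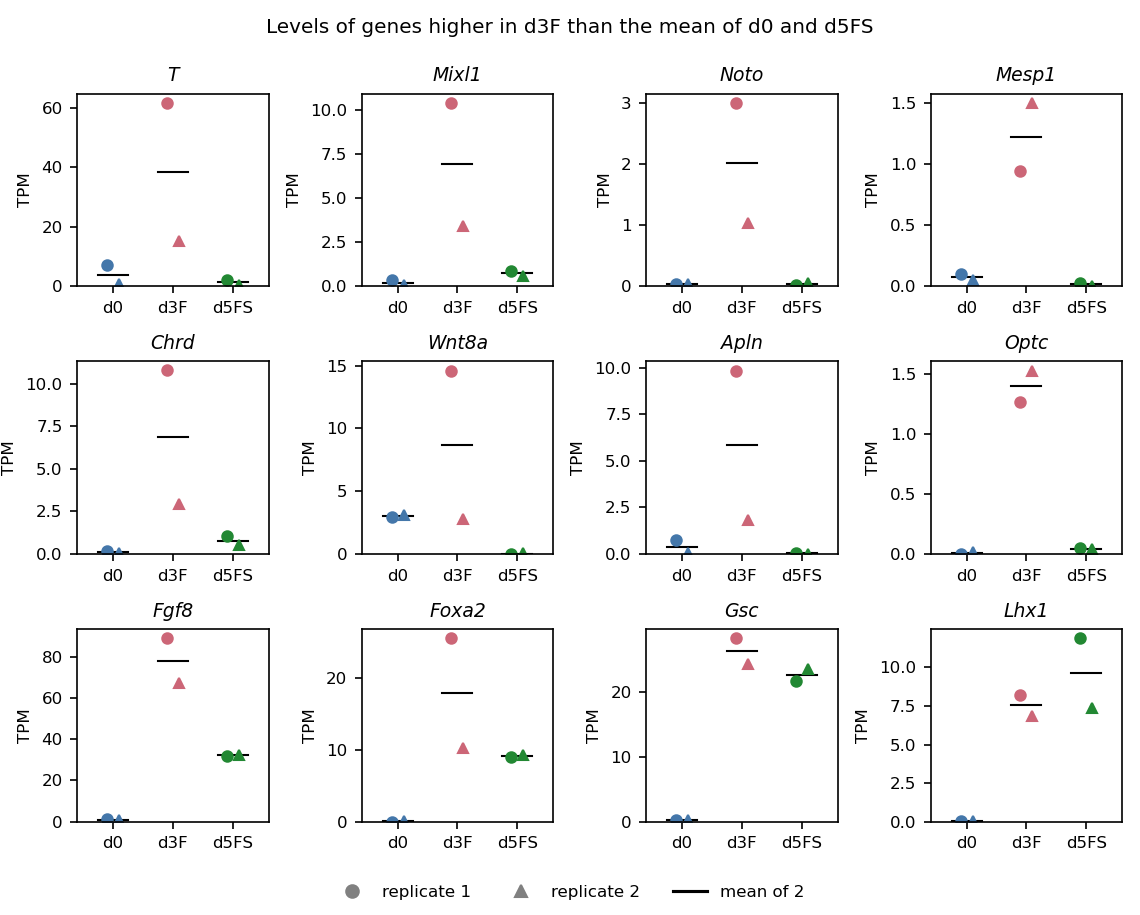
TPM of 12 genes with a positive contrast in each sample of d0, d3F and d5FS (circles, replicate 1; triangles, replicate 2; bars, mean of 2), each panel with its own linear axis from 0. T, Mixl1, Noto, Mesp1, Chrd, Apln and Optc were high at d3F only, Wnt8a at d3F replicate 1 with d0 at an intermediate level, and Gsc and Lhx1 were at similar levels in d3F and d5FS.

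A gene off the midpoint need not exceed both ends, so d3F was also compared with each end stage by the same fit. These comparisons share the d3F samples. Over all genes, d3F was higher than d0 for 407 genes and lower for 276, and higher than d5FS for 67 genes and lower for 157. The number of genes that passed against both ends was 15 for peaks (0.103% of the genes tested) and 6 for dips (0.0413%), and with the replicate block it was 49 and 27. All 15 peaks were among the 48 higher genes: the 5 markers and Apln, Arg1, Chst7, Fah, Fut10, Klhl32, Optc, Pde4d, Sprr2a1 and Sprr2a2. A further 32 of the 48 passed against d0 only, and Wnt8a passed against d5FS only.

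Apln, which encodes apelin, was at 0.73 and 0.05 TPM in d0, 9.85 and 1.84 in d3F, then 0.05 and 0.01 in d5FS. It was highest in d3F replicate 1, 3.2-fold above replicate 2 in CPM, and its contrast was 5.41 ± 0.76 (SE; edgeR adjusted p = 0.0416). Aplnr, the receptor of apelin, passed against d0 but not against d5FS. Its TPM was 0.01 and 0.03 in d0, 5.37 and 2.20 in d3F, then 1.34 and 0.25 in d5FS. Both d3F samples were above all others, and the differences were 6.83 from d0 (edgeR adjusted p = 0.0103) and 1.83 from d5FS (edgeR adjusted p = 0.205).

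Optc, which encodes the small leucine-rich proteoglycan opticin, had the largest contrast of the called genes, 5.76 ± 0.70 (SE; edgeR adjusted p = 0.024). It was at 0.00 and 0.02 TPM in d0, 1.27 and 1.53 in d3F, then 0.05 and 0.04 in d5FS. The d0 samples held 1 count together against 168 in d3F, a ratio of 160.0 (95% interval 28.3 to 6360, counting error only). Sprr2a1 and Sprr2a2, small proline-rich proteins of the epidermal envelope, were listed with identical values, 10.3 and 3.20 TPM in d3F and at most 0.23 in every other sample. They are near-identical copies whose reads cannot be separated, so they count as 1 uncertain observation (contrast 5.37 ± 0.44, SE; edgeR adjusted p = 0.0071). Both are nevertheless included in the counts of higher genes and of peaks given here.

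Arg1 encodes arginase, which splits arginine into ornithine and urea. It was at 0.23 and 0.09 TPM in d0, 2.36 and 1.72 in d3F, then 0.14 and 0.03 in d5FS, so the lowest d3F value was well above the highest end-stage value. Its contrast was 3.93 ± 0.52 (SE; edgeR adjusted p = 0.0345). Fah, the last enzyme of tyrosine breakdown, was present at both ends and had a smaller contrast of 1.88 ± 0.27 (SE; edgeR adjusted p = 0.0427), with 6.97 and 2.31 TPM in d0, 20.2 and 9.35 in d3F, then 2.56 and 1.76 in d5FS. The sulfotransferase gene Chst7 (contrast 2.51), the fucosyltransferase gene Fut10 (1.9), the cAMP phosphodiesterase gene Pde4d (1.87) and Klhl32 (3.21) completed the group.

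Among the 32 genes that passed against d0 only, 14 were within 1 log2 unit of d5FS, so their contrast reflected a level reached by day 3 that was similar at day 5. This group held many of the regulators of mesendoderm. Fgf8, a ligand required for cells to leave the streak, was at 1.06 and 0.65 TPM in d0, 89.0 and 67.3 in d3F, then 32.0 and 32.4 in d5FS. Its d3F samples were above both d5FS samples, but the difference from d5FS was 0.74 (log2; edgeR adjusted p = 0.296), and its contrast was 3.51 ± 0.29 (SE; edgeR adjusted p = 0.0071). Fgf8, Sprr2a1 and Sprr2a2 kept their call in 5 of the 6 fits that left out a sample, more than any other gene.

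Foxa2, the forkhead factor on which the d3F and d5FS cells were sorted, was at 0.02 and 0.05 TPM in d0, 25.6 and 10.3 in d3F, then 8.98 and 9.36 in d5FS. The d3F samples were above d5FS in TPM but not in CPM, where the groups overlapped, and the difference from d5FS was 0.31 (log2; edgeR adjusted p = 0.765). Gsc, a homeobox factor of the organizer, was at 0.30 and 0.23 TPM in d0, 28.2 and 24.3 in d3F, then 21.6 and 23.5 in d5FS. Its d3F samples were above d5FS in TPM, but the d3F level fitted to the counts was below that of d5FS. Lhx1, a LIM homeobox factor needed for anterior mesendoderm, was at 0.07 and 0.04 TPM in d0, 8.20 and 6.88 in d3F, then 11.9 and 7.37 in d5FS.

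The fitted d3F level lay between the ends for 7 of the 48 genes (Foxq1, Gata6, Gsc, Lhx1, Pcdh7, Pkdcc and Smoc2). On the log2 scale they had covered between 88.7% (Gata6) and 98.7% (Pcdh7) of the distance from d0 to d5FS by day 3. The contrasts of Gsc and Lhx1 were 3.06 ± 0.33 and 3.10 ± 0.28 (SE; edgeR adjusted p = 0.0165 and 0.0102). Eomes, the T-box factor of the streak and endoderm, was similar: 1.92 and 0.44 TPM in d0, 19.0 and 17.4 in d3F, 15.4 and 9.96 in d5FS, and a contrast of 2.05 ± 0.32 (SE; edgeR adjusted p = 0.0472). Sox9, a chondrogenic and notochord factor, was low throughout, with 0.55 and 0.28 TPM in d3F and at most 0.30 elsewhere, and 2 counts in d0 against 134 in d3F (ratio 63.8, 95% interval 17.3 to 532, counting error only). Day 3 lies past the midpoint in time, and when d0 was weighted 0.4 and d5FS 0.6 instead, 13 genes were higher and 5 lower. The markers Mixl1, Noto and Chrd kept their call on that line and T and Mesp1 lost it. Of the genes named in this paragraph, Lhx1 also kept it, and Gsc, Eomes, Sox9, Gata6, Foxq1, Pcdh7, Pkdcc and Smoc2 lost it.

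The other 18 genes that passed against d0 only were over 1 log2 unit above both ends. Several encode matrix, adhesion or guidance proteins. Tnc encodes tenascin C of the extracellular matrix and was at 0.17 and 0.11 TPM in d0, 3.41 and 4.87 in d3F, then 1.59 and 0.73 in d5FS (contrast 3.17 ± 0.38, SE; edgeR adjusted p = 0.024). Cdh11, a mesenchymal cadherin, was at 0.31 and 0.05 TPM in d0, 2.73 and 4.59 in d3F, then 0.36 and 0.31 in d5FS (contrast 3.82 ± 0.50, SE; edgeR adjusted p = 0.0345). Vim, the intermediate filament protein of mesenchymal cells, was by far the most abundant of the 18, at 32.9 and 21.4 TPM in d0, 171 and 220 in d3F, then 66.4 and 28.4 in d5FS. Its d3F levels exceeded all others, with a contrast of 2.23 ± 0.35 (SE; edgeR adjusted p = 0.0472). Adamts9 (a matrix protease), Col14a1 (a fibril-associated collagen), Mrc2 (a collagen receptor), Reln (reelin), Slit3 and Sema3a (secreted guidance proteins) had contrasts of 2.85, 3.64, 1.91, 2.96, 2.84 and 3.77. With the replicate block Sema3a was not called (edgeR adjusted p = 0.053). Tnc, Cdh11, Vim, Col14a1, Reln and Sema3a were over 2-fold higher in d3F replicate 2 than in replicate 1 in CPM. Without d3F replicate 2 their contrasts were 2.42, 2.89, 1.58, 2.64, 2.21 and 2.73. Adamts9, Mrc2 and Slit3 were within 2-fold between the d3F replicates.

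Wnt8a, a Wnt ligand of the streak, was the 1 higher gene with no call against d0. It was at 2.97 and 3.07 TPM in d0, 14.6 and 2.80 in d3F, then 0.02 and 0.05 in d5FS. Only d3F replicate 1 exceeded d0, so the d3F group overlapped d0, and the difference from d0 was 0.98 (log2; edgeR adjusted p = 0.442) against 6.99 from d5FS (edgeR adjusted p = 0.0174). Its contrast was 3.99 ± 0.60 (SE; edgeR adjusted p = 0.0446), and with the replicate block it was not called (edgeR adjusted p = 0.0509). For Wnt8a the departure from the midpoint was thus mainly the loss of expression after day 3.

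Among the 12 lower genes, 4 passed against both ends: Plac8, Nptx2, Mreg and Fabp3. Plac8 was at 47.1 and 28.7 TPM in d0, 14.7 and 9.26 in d3F, then 182 and 86.3 in d5FS. Both d3F samples were below the lowest end-stage sample, and the contrast was -2.91 ± 0.30 (SE; edgeR adjusted p = 0.0117). Fabp3, which encodes a fatty acid-binding protein, had the same order of stages, with 67.0 and 74.4 TPM in d0, 26.4 and 16.6 in d3F, then 189 and 98.5 in d5FS (contrast -2.66 ± 0.41, SE; edgeR adjusted p = 0.0461). Nptx2, which encodes neuronal pentraxin 2, was at 4.21 and 2.77 TPM in d0, 1.59 and 1.11 in d3F, then 16.6 and 17.2 in d5FS (contrast -2.90 ± 0.35, SE; edgeR adjusted p = 0.024). Mreg was the 1 of the 4 whose d0 level was the highest, at 11.2 and 12.7 TPM in d0, 2.23 and 1.11 in d3F, then 7.75 and 4.92 in d5FS (contrast -2.86 ± 0.42, SE; edgeR adjusted p = 0.0431). AU015836 and Lypd2 also passed against both ends but were not called by the contrast.

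Another 5 lower genes, Myl3, Vil1, Rab15, Gramd1b and Fam46c, passed against d5FS only, so only their rise after day 3 was called. In each of them both d3F samples were nevertheless below all 4 end-stage samples in CPM. All but Rab15 were over 1 log2 unit below both ends. Myl3, a myosin light chain, had the lowest contrast, -4.73 ± 0.64 (SE; edgeR adjusted p = 0.0396), and was at 0.79 and 0.13 TPM in d0, 0.12 and 0.06 in d3F, then 12.6 and 6.15 in d5FS. Vil1 encodes villin, an actin-bundling protein of microvilli, and was at 0.47 and 0.18 TPM in d0, 0.10 and 0.14 in d3F, then 2.81 and 3.42 in d5FS (contrast -3.29 ± 0.52, SE; edgeR adjusted p = 0.0472). Rab15, a small GTPase of endosomes, differed from d0 by -0.45 (log2; edgeR adjusted p = 0.445) and from d5FS by -3.37 (edgeR adjusted p = 0.0102).

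The remaining 3 lower genes, Dnmt3l, Dppa4 and Gm2373, passed against d0 only and were low at both later stages. Dnmt3l, the cofactor of the de novo DNA methyltransferases, was at 123 and 89.9 TPM in d0, 4.40 and 2.84 in d3F, then 2.98 and 2.32 in d5FS. The d3F and d5FS samples were nearly level, and the contrast was -2.61 ± 0.31 (SE; edgeR adjusted p = 0.024). Dppa4, a chromatin protein of pluripotent cells, was at 57.4 and 43.1 TPM in d0, 3.65 and 1.87 in d3F, then 2.05 and 1.23 in d5FS, so that it had covered 95.1% of its log2 fall by day 3 (contrast -2.13 ± 0.31, SE; edgeR adjusted p = 0.0427).

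**Figure D3:**
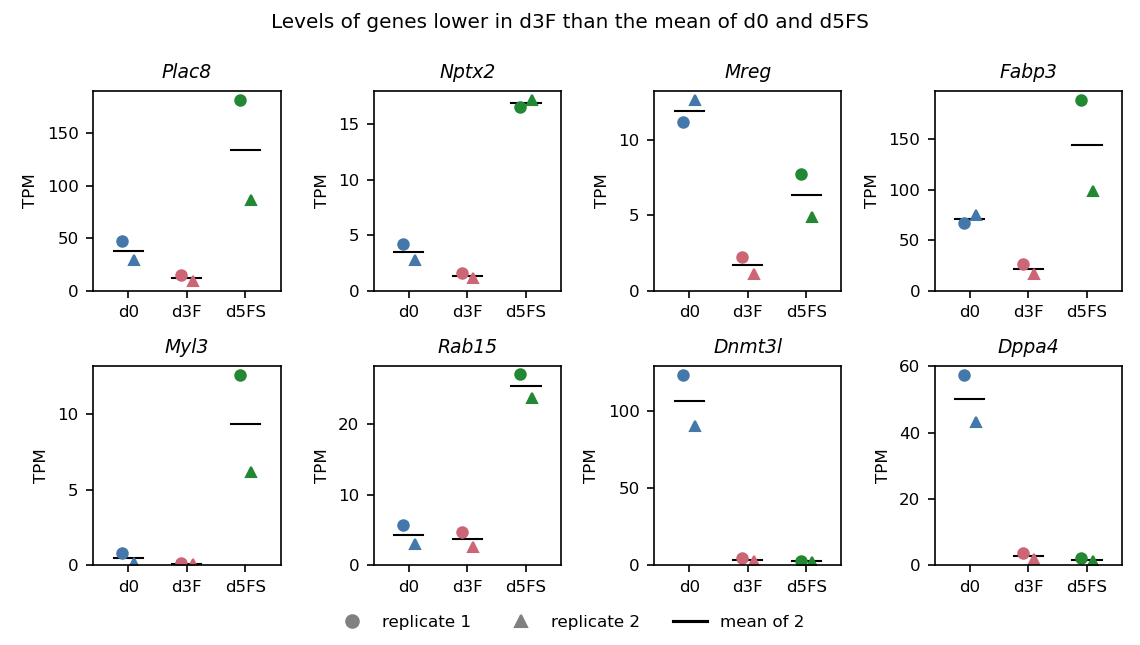
TPM of 8 genes with a negative contrast in each sample (circles, replicate 1; triangles, replicate 2; bars, mean of 2), each panel with its own linear axis from 0. Plac8, Nptx2, Mreg, Fabp3 and Myl3 were lowest at d3F. Myl3 and Rab15 rose between d3F and d5FS, and Dnmt3l and Dppa4 had fallen by d3F.

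Lists of genes of known role were then read by their counts and medians, beside the median contrast of 0.02 over all genes and the called shares of 0.33% higher and 0.0825% lower. The lists were drawn up with earlier results of these data known and are no independent evidence of a direction. Of 20 primitive streak and mesendoderm regulators, all tested, 9 were higher (T, Mixl1, Eomes, Gsc, Lhx1, Mesp1, Foxa2, Fgf8 and Gata6), 0 were lower and the median contrast was 1.93. Against d0, 12 of them passed as higher, and against d5FS, 4 passed as higher and 1 as lower. With the replicate block 11 of the 20 were higher, Zic2 and Fst being added. Nodal itself was at 37.0 and 13.3 TPM in d0, 31.1 and 19.2 in d3F, then 15.5 and 15.4 in d5FS, and its contrast was 0.02 ± 0.27 (SE; edgeR adjusted p = 0.994). Its co-receptor gene Tdgf1, at 193 and 44.6 TPM in d3F, had a contrast of 1.37 (edgeR adjusted p = 0.218).

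Of 16 node and notochord genes tested out of 18, 5 were higher (Noto, Chrd, T, Foxa2 and Sox9) and 0 lower, with a median of 1.79. Shh, the ligand made by node and notochord, was at 0.94 and 0.40 TPM in d3F and its contrast was 2.44 (edgeR adjusted p = 0.142). Foxj1, the master factor of motile cilia, was at 1.64 and 0.35 TPM in d0, 23.8 and 4.84 in d3F, then 3.07 and 1.48 in d5FS. All d3F values were above the rest, but the contrast of 2.86 ± 0.46 (SE) missed the threshold (edgeR adjusted p = 0.0508), and with the replicate block Foxj1 was called (edgeR adjusted p = 0.0113). Of the 18 genes of motile and nodal cilia tested, edgeR called 0 (6 at an unadjusted p under 0.05, 2 with the replicate block and 2 with the DESeq2 Wald test), and their median was 0.84.

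Mesoderm genes were less abundant than the streak regulators, with a summed TPM of 33.2 and 19.0 in d3F against 632 and 321. Of 25 nascent, paraxial and lateral mesoderm genes, 18 passed the filter, 2 were higher (Mesp1 and Aplnr, 5 with the replicate block) and the median was 1.08. Meox1, a factor of paraxial mesoderm, was at 1.02 and 3.30 TPM in d3F and at most 0.14 elsewhere (contrast 4.19, edgeR adjusted p = 0.0853, and 0.00836 with the replicate block). Tbx6, which specifies paraxial mesoderm, was at 0.31 and 0.12 TPM in d3F and 0.43 and 0.13 in d5FS, so d3F did not stand apart.

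Signalling genes gave smaller medians. Of 27 Nodal and Activin pathway genes 4 were higher (Eomes, Gsc, Mixl1 and Lhx1, all of them regulators counted above) with a median of 0.37. Of 26 Wnt feedback and target genes 2 were higher, T and Wnt8a, with a median of 0.70 (4 with the replicate block, Sp8, T, Ccnd1 and Fzd10). The Wnt feedback genes Axin2 and Sp5 had contrasts of 0.57 and 0.51 (edgeR adjusted p = 0.639 and 0.882). Axin2 was at 2.46 and 1.75 TPM in d0, 2.91 and 1.04 in d3F, then 0.53 and 0.35 in d5FS, so that d3F and d0 overlapped. Of 22 FGF and ERK feedback genes 2 were higher, Fgf8 and Fgf10 (median 0.44), and of 18 BMP pathway genes 1, Chrd (median 1.0). Nog, a second BMP antagonist of the node, was at 4.0 and 3.17 TPM in d3F and at most 2.43 elsewhere (contrast 2.35, edgeR adjusted p = 0.079). Of 15 Notch pathway genes edgeR called 0 (5 at an unadjusted p under 0.05, 1 with the replicate block and 1 with the DESeq2 Wald test), with a median of 0.40.

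Of 22 definitive endoderm genes, 4 were higher (Foxa2, Gata6, Gsc and Lhx1) and 0 lower, with a median of 0.21. The contrast was positive for 13 and negative for 9, with a lowest value of -6.52. At an unadjusted p under 0.05 there were 9 genes. The replicate block called 4 higher and 0 lower, and the DESeq2 Wald test 6 higher and 2 lower. Against d0 11 of them passed as higher and against d5FS 6 as lower, so as a group they stood between the ends. Sox17, on which d5FS was gated, was at 0.17 and 0.05 TPM in d0, 1.02 and 1.87 in d3F, then 7.90 and 9.68 in d5FS, with a contrast of 0.44 (edgeR adjusted p = 0.887). Cer1, a Nodal and BMP antagonist of anterior endoderm, had a contrast of 1.53 (edgeR adjusted p = 0.114), with 22.6 and 16.6 TPM in d3F against 87.9 and 92.2 in d5FS.

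All 20 naive pluripotency genes were tested, 19 had a negative contrast and the median was -1.94. Their summed TPM was 1130 and 3420 in d0, 275 and 148 in d3F, then 196 and 100 in d5FS. The d0 replicates were thus far apart, with replicate 2 the higher, although most genes had a lower TPM in replicate 2. The unblocked edgeR test called 0 of them, with 15 at an unadjusted p under 0.05, while 1 (Dppa3) was called lower with the replicate block and 12 with the DESeq2 Wald test. Against d0 edgeR called 13 of the 20 lower, and against d5FS it called 0 in either direction. Zfp42 was at 54.0 and 102 TPM in d0, 7.36 and 2.76 in d3F, then 5.06 and 2.23 in d5FS. The exception in sign was Nanog, at 24.1 and 46.6 TPM in d0, 33.4 and 11.3 in d3F, then 3.15 and 2.04 in d5FS, with a contrast of 0.61 ± 0.50 (SE; edgeR adjusted p = 0.797). Of 21 formative and primed pluripotency genes 1 was lower, Dnmt3l, and the median was 0.34. Fgf5 was at 3.58 and 0.16 TPM in d0, 43.1 and 17.2 in d3F, then 40.1 and 20.9 in d5FS, and the d0 replicates were far apart.

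Of 22 cadherin switch and EMT genes 2 were higher, Cdh11 and Vim, with a median of -0.09. Cdh1 (E-cadherin) was at 59.5 and 20.9 TPM in d3F, within the range of the other samples (contrast -0.47, edgeR adjusted p = 0.735), while Cdh2 (N-cadherin) was above all others at 8.27 and 6.60 TPM (contrast 2.11, edgeR adjusted p = 0.103). Snai1, a repressor of Cdh1, was at 0.55 and 0.19 TPM in d3F against 0.35 and 0.23 in d0. Of 20 ATF4 and amino acid stress genes 1 was higher, Vldlr (median 0.79). The unblocked edgeR test called 0 of 24 cholesterol genes (18 at an unadjusted p under 0.05, 1 with the replicate block, 1 with the DESeq2 Wald test) with a median of 0.86, and 0 of 22 G1/S and replication genes (1, 1 and 1) with a median of 0.20. It also called 0 of 26 glycolysis and hypoxia genes (median 0.46), 0 of 20 mitosis genes (0.10), 0 of 22 replication-dependent histone genes (0.29) and 0 of 19 immediate early genes (-0.02), as did the replicate block and the DESeq2 Wald test, with 3, 0, 0 and 2 genes at an unadjusted p under 0.05.

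**Figure D4:**
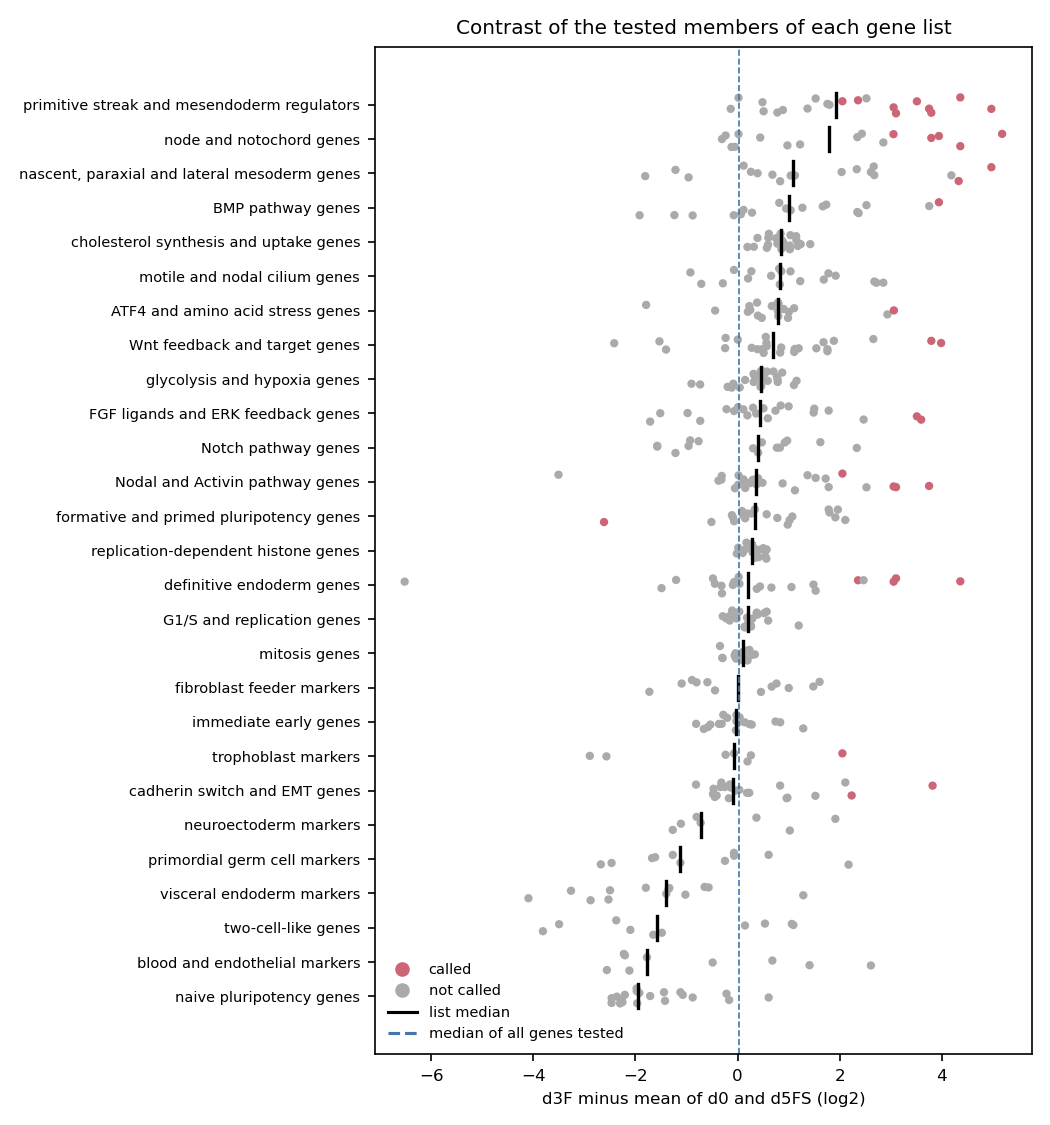
Each point is the log2 contrast of a tested member of a gene list (red, called; grey, not called), with the list median as a black bar and the median of all genes as a dashed line at 0.02. Of the 27 lists drawn, the streak, node and mesoderm lists have the highest medians (1.93, 1.79 and 1.08) and naive pluripotency genes the lowest (-1.94).

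Markers of other cell types were measured because a sorted population can hold other cells, and in bulk RNA fewer cells of a type and less RNA per cell cannot be told apart. Of 13 visceral endoderm markers tested edgeR called 0 (7 at an unadjusted p under 0.05, 1 lower with the replicate block and 4 lower with the DESeq2 Wald test), and their summed TPM was 46.7 and 22.6 in d3F against 33.3 and 39.5 in d0 and 95 and 74.7 in d5FS. The defining markers Afp and Ttr were at 0.03 and 0.01 and at 0.00 and 0.26 TPM in d3F. The 14 blood and endothelial markers summed to between 3.89 and 8.85 TPM in all samples, with 9 tested and 0 called by edgeR (4 at an unadjusted p under 0.05, 0 with the replicate block and 2 with the DESeq2 Wald test). Hbb-bh1 and Hba-x were listed at 0 in all samples. Fibroblast markers summed to 11.8 and 14.2 TPM in d3F, 6.48 and 2.65 in d0, then 29.4 and 13.9 in d5FS. Among the replicate 2 samples this sum was highest in d3F, and among the replicate 1 samples in d5FS. Of the 12 fibroblast markers tested out of 14, edgeR called 0 (4 at an unadjusted p under 0.05, 0 with the replicate block and 1 with the DESeq2 Wald test). Neuroectoderm markers (7 tested of 14, median -0.72), primordial germ cell markers (11 tested, median -1.12) and two-cell-like genes (10 tested, median -1.57) also had 0 edgeR calls, with 2, 5 and 1 at an unadjusted p under 0.05, 0, 2 and 0 with the replicate block, and 1, 4 and 0 with the DESeq2 Wald test. Their summed TPM in d3F was 42.9 and 17.7, 69.7 and 28.9, and 2.13 and 3.45. The two-cell-like genes summed to 3.82 and 28.3 TPM in d0 and to 2.17 and 2.9 in d5FS, so the d0 replicates differed. Of 7 trophoblast markers tested 1 was called higher, Eomes, which is also counted above as a streak regulator. Their median was -0.07, and 4 of the 7 had a negative contrast. At an unadjusted p under 0.05 there were 3. The replicate block called 1 higher, and the DESeq2 Wald test 1 higher and 2 lower. The part of these cell types in the contrast was not tested.

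The d3F replicates did not differ in the same direction for all 48 higher genes. In 29 genes they were within 2-fold of each other in CPM, in 4 (Apln, Chrd, T and Wnt8a) replicate 1 was over 2-fold higher, and in 15 replicate 2 was over 2-fold higher. Over all genes tested, 11.3% were over 2-fold apart in d3F, 20.9% in d0 and 15.6% in d5FS. The 15 genes were Cdh11, Col14a1, Col23a1, Fgf10, Foxq1, Klhl6, Mesp1, Optc, Pcsk5, Reln, Samd5, Sema3a, Smoc2, Tnc and Vim. Klhl6, at 7.75 and 25.2 TPM in d3F, was 5.43-fold higher in replicate 2 and Pcsk5, which encodes a proprotein convertase, 5.4-fold. For these 15 genes replicate 1 was higher for 7 in d0 and for 8 in d5FS. For the 4 genes higher in d3F replicate 1, replicate 1 was also higher for 3 in d0 and for 3 in d5FS. What separates the d3F replicates, a difference in library type included, was not tested.

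**Figure D5:**
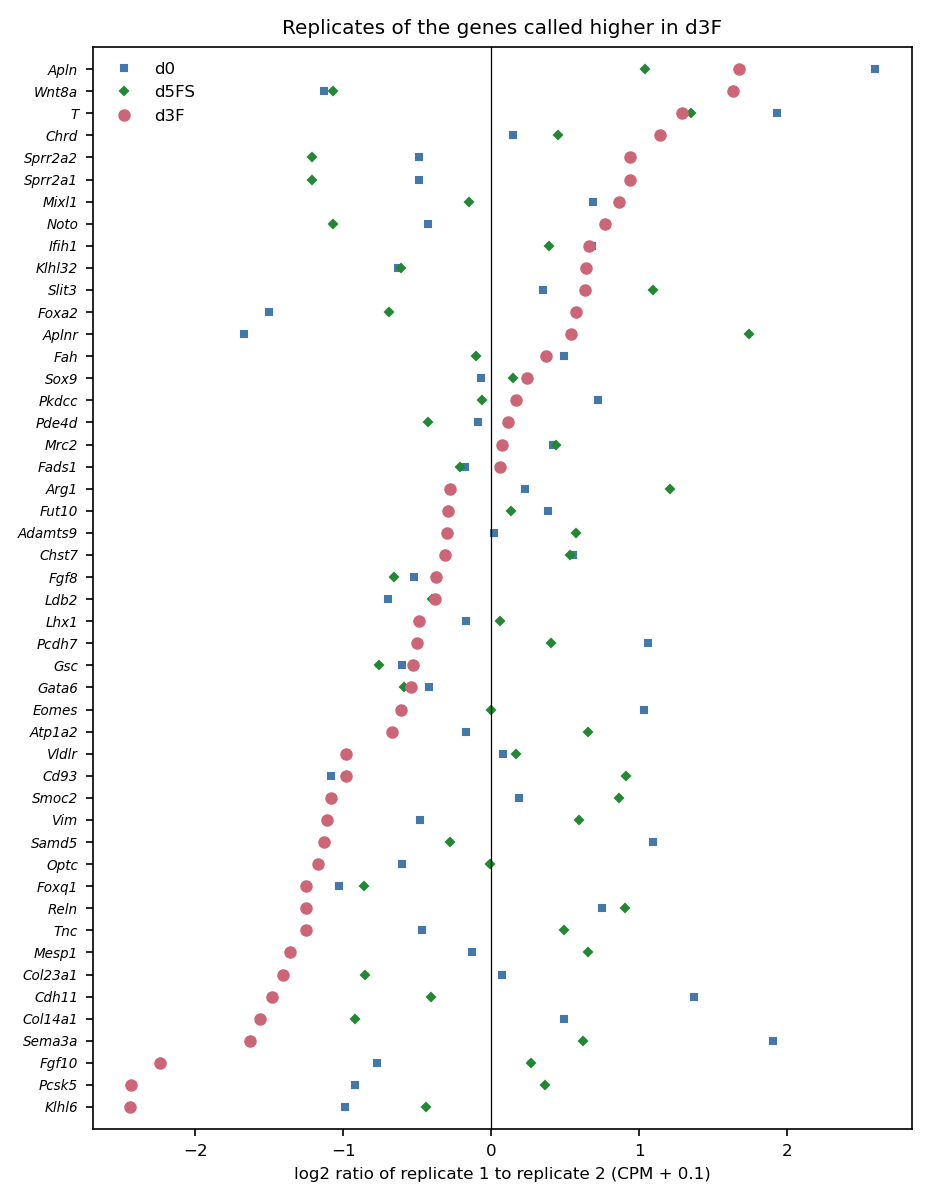
For each of the 48 genes higher in d3F, the log2 ratio of replicate 1 to replicate 2 in CPM plus 0.1 is shown for d3F (red circles), d0 (blue squares) and d5FS (green diamonds), ordered by the d3F ratio. The d3F ratios run from Apln at the top to Klhl6 at the bottom, with 4 genes over 1 and 15 below -1.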

How the data were processed

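Sorted cells of the DKI ESC line were profiled by RNA-seq at d0, d3F and d5FS with 2 samples per stage, described in the study as independent biological replicates. Per the labels, total RNA was depleted of ribosomal RNA. The study's library list names mRNA for 1 library of each stage and total RNA for the other, without saying which replicate. The authors aligned reads to mm10 (GRCm38) with STAR and quantified genes with RSEM, with tool versions and annotation release not given in the sources used here. The deposited expected counts are RSEM estimates and were not normalized. The deposited TPM values are scaled by the authors for length and depth, and FPKM columns were not used. Totals per sample are given in the report, and count intervals cover counting error only.

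Expected counts were rounded and analysed with edgeR 4.0.16 in R 4.3.3 (filterByExpr, TMM, glmQLFit, glmQLFTest, prior count 0.125), with 1 mean per stage, all 6 samples in the fit and residual degrees of freedom of 3. A gene counted as called when its Benjamini-Hochberg adjusted p over all genes tested was below 0.05 and its absolute log2 value exceeded 1. No exact permutation test was made on single genes, because 2 samples against 4 cannot give a p below 0.0667. Replicates were not duplicates (chi-square per degree of freedom 87.8 to 196.4). Samples with the same replicate number deviated together (r across genes of the replicate differences between stages 0.278 to 0.324), so the numbers, which come from the sample titles, were taken to pair the samples. A fit with the replicate block (2 residual degrees of freedom) was therefore made beside the unblocked fit.

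Alternatives were DESeq2 1.42.0 size factors, 2 filters, DESeq2 and glmTreat tests, the replicate block, a time-weighted line, the end stages as 1 group and leaving out each sample. Named genes were the 5 markers, called list members, the 15 largest positive and 10 largest negative contrasts beyond both ends, and the 5 largest of each sign between the ends, the last 2 kinds only where the highest stage averaged 1 TPM or more. Other genes were named where a count of few genes or a list was described. Members, lists and tests were chosen with earlier results of these data known. On simulated counts for 14379 genes with 200 changed, the unblocked fit of this contrast recovered 91% of changes of log2 size 2 and 100% of size 4, with 4.975% of its calls false. The simulation gave each gene the same mean in d0 and d5FS and drew no replicate effect. Changed genes were picked only above a floor of abundance. The samples here differ in these respects, so the rates cannot be carried over to the genes called. Gene coordinates are from GENCODE for GRCm38 and promoters from RefSeq. Tables were made with Python 3.11.15.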

Additional observations from a re-analysis of the deposited data

How the results depend on the processing

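Processing choices moved the counts of called genes (48 higher, 12 lower) and of peaks and dips against both ends (15 and 6). The direction of the 60 called genes reversed under none of the alternatives that could give a value. Each alternative used all or most of the samples on which these genes were called, so a reversal was unlikely from the start. DESeq2 size factors gave 49, 12, 16 and 8. Without a filter on low counts the 4 counts were 523, 373, 110 and 58, and with at least 10 counts in every sample 8, 4, 4 and 3. The DESeq2 Wald test called 294, 284, 62 and 35, the DESeq2 test against a log2 value of 1 called 34, 14, 8 and 2, and edgeR glmTreat called 11, 1, 3 and 0. With the replicate block, the pairing taken from the sample titles, the counts were 129, 43, 49 and 27, and Sema3a and Wnt8a lost their call. The time-weighted line gave 13 higher and 5 lower. With the end-stage samples as 1 group edgeR called 0 and 0, with 558 genes at an unadjusted p under 0.05. By construction this puts the difference between d0 and d5FS into the spread. Leaving out 1 sample gave 0 to 132 higher, 0 to 97 lower, 0 to 27 peaks and 0 to 19 dips. The lone sample of a stage was then assumed to vary like the others. Of 875 values of called genes under these settings, 447 stayed past the threshold and 428 kept their direction without passing it. With TPM rescaled by the TMM factors, 50 mean d3F levels moved by less than 1 SD and 10 by more. The cause was otherwise not tested. With 2 samples a stage, adjusted p-values near 0.05 depended on single libraries, and low genes such as Mesp1, Sox9 and Optc rested on few counts in an end stage.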

Other observations

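A pair of gene groups was picked after the values were seen. They are given as values with no test of the group. Over all genes tested, both d3F samples were above all 4 end-stage samples in 5.85%. By edgeR 0.33% were called higher, and 0.887% with the replicate block. Because the groups were picked on these values, larger shares in them are no evidence about them. The first group holds genes of antigen processing and interferon response. Of 19 such genes, 18 had a positive contrast, the median was 1.24, and in 11 both d3F samples were above all 4 others in CPM. By edgeR 1 was called, Ifih1, a sensor of double-stranded RNA, at 0.04 and 0.01 TPM in d0, 0.79 and 0.29 in d3F, then 0.13 and 0.06 in d5FS (contrast 3.16 ± 0.47, SE; edgeR adjusted p = 0.0435), and with the replicate block 9 were called. Psmb8, an inducible subunit of the immunoproteasome, was at 3.90 and 0.82 TPM in d0, 27.7 and 20.1 in d3F, then 6.87 and 0.63 in d5FS (contrast 2.91, edgeR adjusted p = 0.105, and 0.049 with the replicate block). Psmb10, another such subunit, was at 20.7 and 9.53 TPM in d0, 51.0 and 33.0 in d3F, then 9.49 and 2.76 in d5FS (contrast 1.86, edgeR adjusted p = 0.0645, and 0.0373 with the replicate block). Tap2, a subunit of the peptide transporter, was at 5.37 and 3.40 TPM in d3F and at most 1.46 elsewhere, while its partner Tap1 did not stand apart (contrast 0.44, edgeR adjusted p = 0.79).

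The second group holds 11 genes of fatty acid desaturation and synthesis. All 11 had a positive contrast, the median was 0.90, and in 8 both d3F samples were above all 4 others. Fads1, the delta-5 desaturase of polyunsaturated fatty acids, was called by edgeR, at 5.55 and 2.96 TPM in d0, 26.1 and 15.1 in d3F, then 7.27 and 5.42 in d5FS (contrast 1.61 ± 0.22, SE; edgeR adjusted p = 0.0416), and 4 of the 11 were called with the replicate block. Fads2, the desaturase of the preceding step of the pathway, was at 8.73 and 5.06 TPM in d0, 44.6 and 26.7 in d3F, then 8.64 and 9.76 in d5FS (contrast 1.75, edgeR adjusted p = 0.0514). Scd2, a stearoyl-CoA desaturase, was at 22.5 and 24.6 TPM in d0, 153 and 101 in d3F, then 31.5 and 40.8 in d5FS (contrast 1.64, edgeR adjusted p = 0.136, and 0.031 with the replicate block). All 24 genes of cholesterol synthesis and uptake also had a positive contrast, between 0.19 and 1.42, and their summed TPM was 1320 and 954 in d3F, 456 and 376 in d0, and 599 and 425 in d5FS.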
